A study of Mus musculus with 87 samples.

Results

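The genes described here are 41 of the 55450 Ensembl gene IDs counted in 24 RNA-seq libraries of mouse embryonic stem cells. They were chosen by their mean level in 3 genotypes. Each had a mean of at least 2 CPM in cells lacking Pcl1-3 and Jarid2, each was at least 2 times the wild-type mean there, and each was at most 1.2 times the wild-type mean once Aebp2 was also lost. CPM is a count scaled to a fixed library total, so it gives a gene's share of all gene counts in a library and is not corrected for gene length. Because these values chose the members, every comparison with the wild type, with the Pcl1-3 + Jarid2 knockout or with the Pcl1-3 + Jarid2 + Aebp2 knockout is a description and carries no test.

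The study profiled 87 samples, 63 by chromatin immunoprecipitation and 24 by RNA-seq, in cells lacking subunits of Polycomb repressive complex 2 (PRC2). The RNA-seq samples covered 8 genotypes with 3 libraries each. Beside wild type and a Suz12 knockout, which lacks a core subunit, there were 3 genotypes in which 1 form of the complex was impaired: Pcl1-3 alone, Pcl1-3 + Epop, and Jarid2 + Aebp2. Another 2 impaired both forms, Pcl1-3 + Jarid2 without and with Aebp2 lost as well. The last lacked Pcl1-3, Jarid2, Aebp2 and also Epop, and is called the full non-core knockout below. Pcl1-3 stands for Pcl1, Pcl2 and Pcl3 together. All cells grew on gelatin in 2i medium, which holds stem cells in a naive state, and total RNA went into Illumina TruSeq libraries. The labels give a different strain entry for each RNA-seq genotype, with a running number from 129B6F1 to 129B6F8, so strain entry and genotype cannot be told apart. They do not say whether these entries stand for different strains. Nor do they say whether a genotype is 1 clone, or whether replicates came from separate cultures, so p-values measure the spread between these samples, which may be technical.

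PRC2 places the repressive methyl marks on lysine 27 of histone H3 and keeps developmental genes silent in stem cells. SUZ12 belongs to the core that all forms of the complex share, and the complex does not hold together without it. The non-core subunits join in alternative sets. The Polycomb-like proteins encoded by these 3 genes bring the complex to unmethylated CpG-rich DNA, and Epop joins the same form. Jarid2 and Aebp2 belong to the other form, which can read ubiquitin on histone H2A, a mark left by the other Polycomb complex.

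The count tables and the reference tables used here do not pair Ensembl IDs with gene symbols, so the members' functions, the knocked-out genes' own counts and the marker genes of stem cells and other cell types were not analysed here. Members are numbered 1 to 41 by falling mean CPM in the Pcl1-3 + Jarid2 knockout, which orders them by read share and not by abundance per length. Member 1 is ENSMUSG00000022464.14, member 2 is ENSMUSG00000095180.8, member 17 is ENSMUSG00000000739.14 and member 23 is ENSMUSG00000025839.3. Library totals ran from 10148155 to 28442061 counts. In bulk RNA a lower level in each cell and fewer cells that express a gene cannot be told apart.

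Most members were low in wild-type cells. The wild-type means ran from 0.807 to 156 CPM with a median of 2.88, 29 members lay under 5 CPM and 8 at 10 CPM or more. In the Pcl1-3 + Jarid2 knockout the means ran from 2.13 to 381 CPM with a median of 7.96. In the Pcl1-3 + Jarid2 + Aebp2 knockout they ran from 0.760 to 181 CPM with a median of 2.84. The median ratio to wild type was 2.44 in the first of these knockouts and 0.960 in the second, as the choice of members set it. The largest ratio was 5.61, and 10 members were at least 3 times the wild type. The low levels limit precision: member 40 had 7, 18 and 9 counts in the wild-type libraries and 19, 27 and 46 in those of the Pcl1-3 + Jarid2 knockout.

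**Figure D1:**
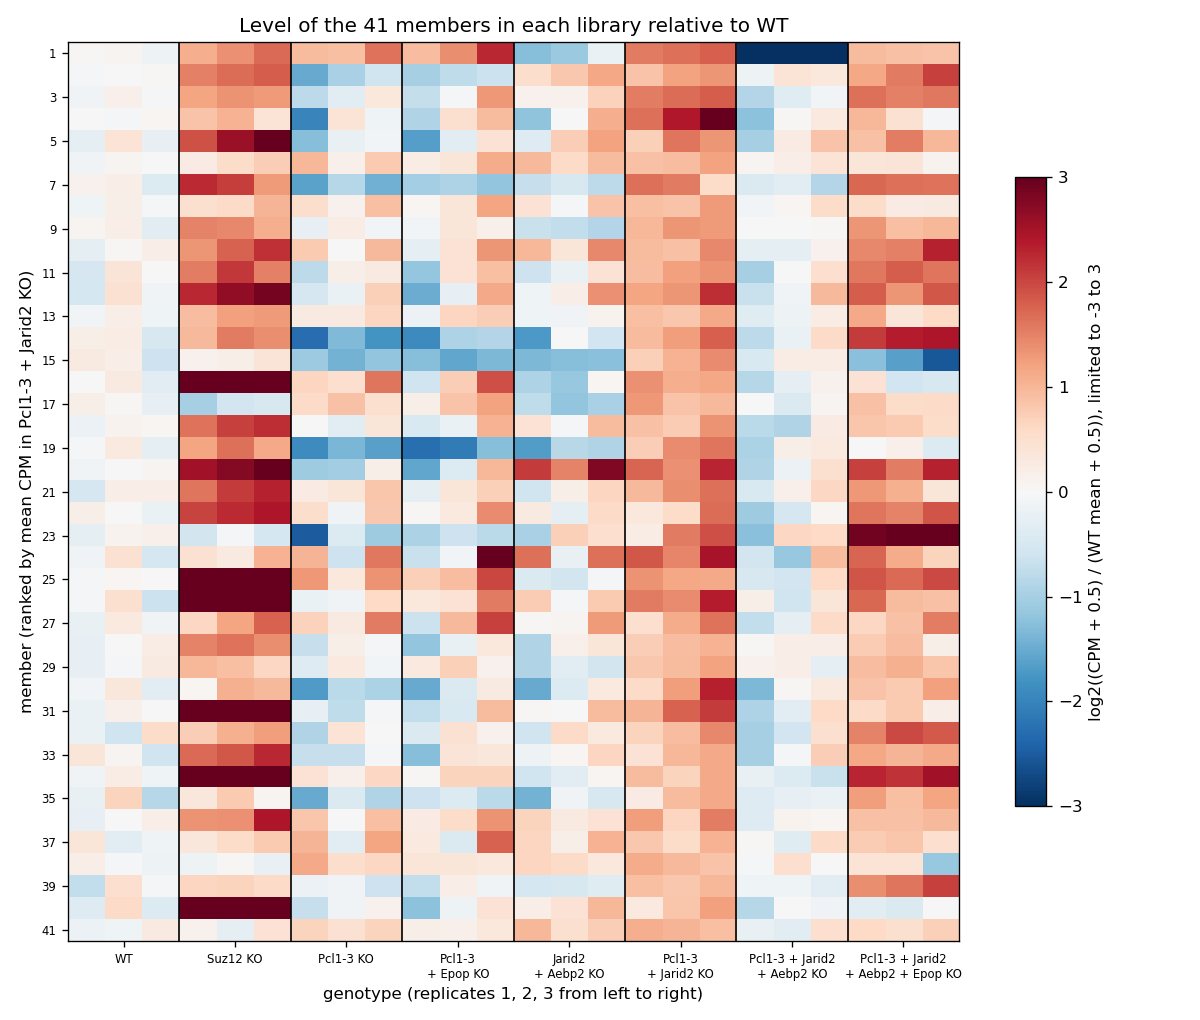
Log2 ratio of each member's CPM to its wild-type mean in each of the 24 libraries, with 0.5 CPM added to both and colours limited to values from -3 to 3; rows are members in order of their level and columns are libraries grouped by genotype. The rule set the wild-type, Pcl1-3 + Jarid2 and Pcl1-3 + Jarid2 + Aebp2 blocks; in the other blocks the Suz12 and full non-core knockouts were high for most members.

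The Pcl1-3 + Jarid2 libraries overlapped for few members with those of the wild type or of the Pcl1-3 + Jarid2 + Aebp2 knockout. In 39 of the 41 members every Pcl1-3 + Jarid2 library lay above every wild-type library, against 24.1% of the 14650 IDs with enough counts to test. In 36 members every one of these libraries lay above every Pcl1-3 + Jarid2 + Aebp2 library, against 9.00% of the IDs tested. In 0 members did they all lie below, against 6.24%. The exceptions in the second comparison were members 5, 23, 27, 33 and 37. The Pcl1-3 + Jarid2 + Aebp2 libraries all lay above the wild-type libraries for 0 members (18.6% of the IDs tested) and below for 2 (18.2%). For the rest they overlapped with the wild type. All these counts follow from the choice of members.

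The thresholds cut through a continuous range. The lowest 3 members in the Pcl1-3 + Jarid2 knockout had 2.13, 2.23 and 2.24 CPM, and the nearest IDs left out had 1.89, 1.84 and 1.74 CPM. The smallest ratios of that knockout to wild type were 2.00, 2.02 and 2.04 inside, and 1.98, 1.97 and 1.94 outside. The largest ratios of the Pcl1-3 + Jarid2 + Aebp2 knockout to wild type inside were 1.196, 1.193 and 1.187, and the nearest outside were 1.205, 1.213 and 1.229.

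Member 1 had the highest mean CPM of the members in the Pcl1-3 + Jarid2 knockout, and the lowest ratio to wild type once Aebp2 was also lost. Wild-type libraries had 122, 127 and 108 CPM. The Pcl1-3 + Jarid2 libraries had 353, 376 and 414 CPM, all above every wild-type library. The Pcl1-3 + Jarid2 + Aebp2 libraries had 2.63, 3.48 and 7.99 CPM, from 38, 50 and 95 counts. Their mean of 4.70 CPM was 0.0395 times the wild-type mean, and no other member was under 0.5 times wild type there. The level without Jarid2 and Aebp2 was also under wild type in each library, at 48.6, 54.6 and 103 CPM. With Pcl1-3 lost the libraries had 229, 225 and 368 CPM, and with Pcl1-3 and Epop lost they had 226, 314 and 570 CPM. The full non-core libraries had 230, 221 and 215 CPM for member 1, and did not overlap with the Pcl1-3 + Jarid2 + Aebp2 libraries. These 2 genotypes differ in the loss of Epop and in strain entry, and may differ in clone, which cannot be told apart. The cause was not tested. The Suz12 knockout had 256, 309 and 387 CPM.

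Member 2 showed another order. Wild-type libraries had 153, 157 and 160 CPM, and the Pcl1-3 + Jarid2 libraries had 281, 360 and 394 CPM. The Pcl1-3 libraries had 54.9, 79.2 and 103 CPM, and the Pcl1-3 + Epop libraries had 78.7, 92.2 and 100 CPM. Both of these genotypes lay under every wild-type library. The Pcl1-3 + Jarid2 + Aebp2 libraries had 142, 208 and 194 CPM, which overlapped with wild type. The full non-core libraries had 348, 465 and 646 CPM and the Suz12 libraries 450, 500 and 555 CPM, all above wild type.

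Member 4 had the largest ratio of the Pcl1-3 + Jarid2 knockout to wild type, 5.61. Its wild-type libraries had 15.2, 14.5 and 15.7 CPM, and the Pcl1-3 + Jarid2 libraries had 48.3, 82.0 and 124 CPM. With Aebp2 also lost the libraries had 6.16, 15.6 and 18.6 CPM. The full non-core libraries had 30.4, 20.8 and 14.8 CPM and overlapped with wild type, so member 4 did not regain the level of the Pcl1-3 + Jarid2 knockout.

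**Figure D2:**
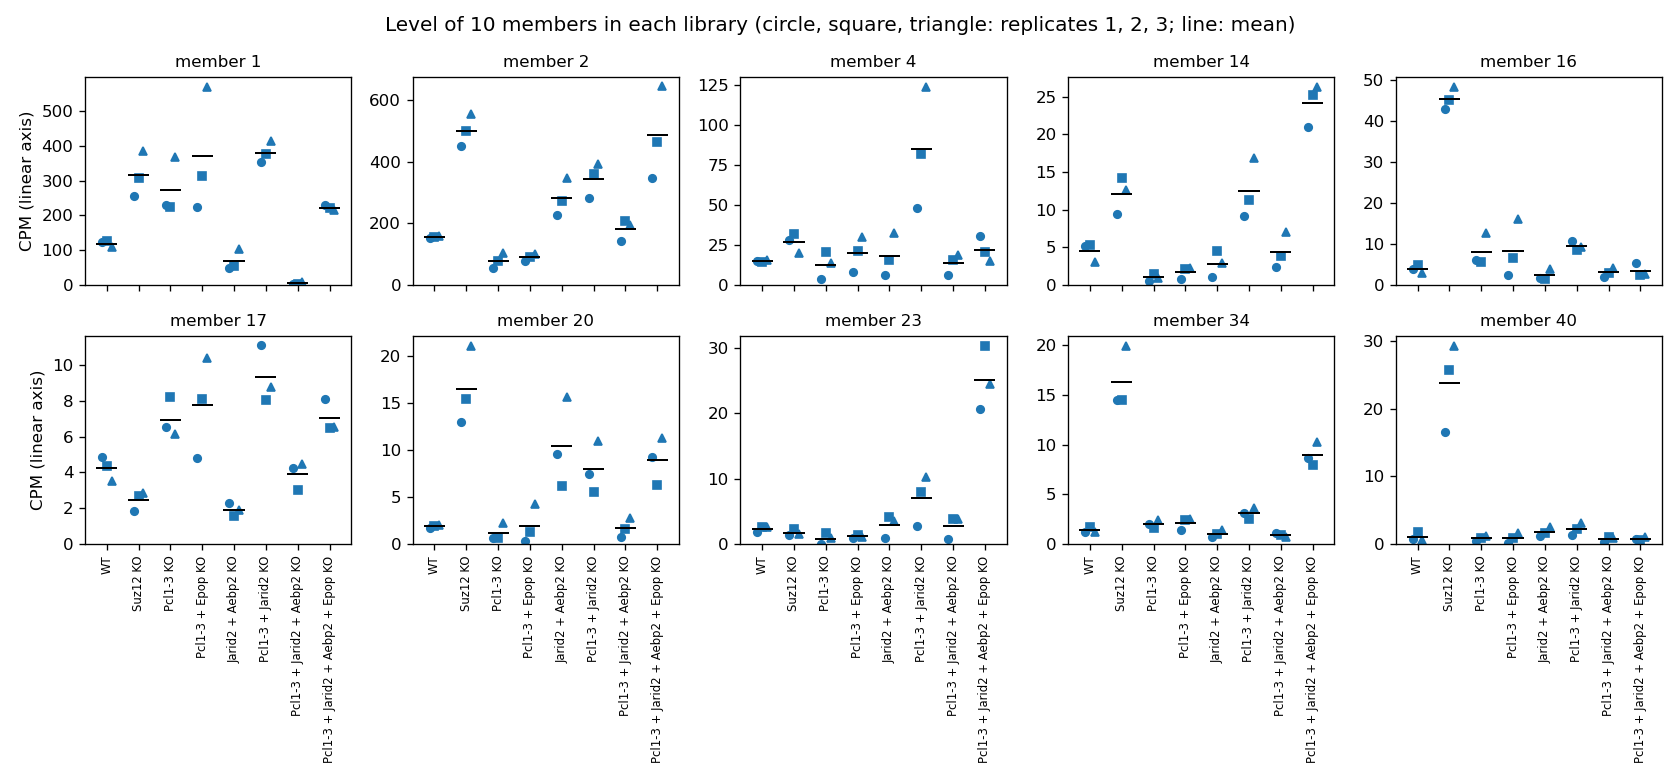
CPM on linear axes, in each of the 8 genotypes, of the 10 members picked by the naming rule given with the processing. Circles, squares and triangles are replicates 1, 2 and 3 and lines are means. Member 1 fell to between 2.63 and 7.99 CPM in the Pcl1-3 + Jarid2 + Aebp2 knockout, and member 40 was high in the Suz12 knockout and near its wild-type level in the full non-core knockout.

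Replicate 3 was high for these genes in most knockouts. Of the 41 members, 33 were highest in replicate 3 of the Pcl1-3 + Jarid2 knockout, 30 in that of the Pcl1-3 + Jarid2 + Aebp2 knockout, 31 in that of the Pcl1-3 + Epop knockout, 28 in that of the Jarid2 + Aebp2 knockout, 26 in that of the Suz12 knockout and 24 in that of the Pcl1-3 knockout. In the wild type 11 members were highest in replicate 3, and in the full non-core knockout 14. Over the 11598 IDs with a mean of at least 2 CPM, replicate 3 was highest for between 32.8% and 48.5% of IDs in a genotype. The median member in replicate 3 lay 0.74 above its genotype's mean on the log2 scale with Pcl1-3 and Epop lost, 0.49 above with Pcl1-3, Jarid2 and Aebp2 lost, and 0.10 below (-0.10) in the wild type. Deviations of this kind use edgeR's log2 CPM, in which library totals are rescaled and a small count is added to each value. The values within each replicate, and with each left out, follow.

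**Figure D3:**
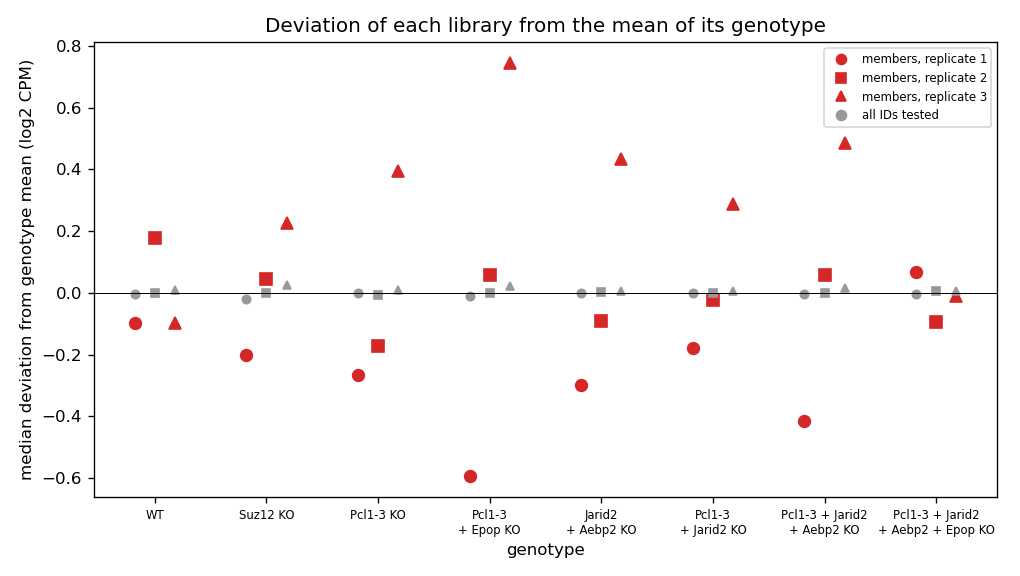
Median deviation of each library from the mean of its genotype, in log2 CPM, for the 41 members (red) and for all IDs tested (grey), by genotype; circles, squares and triangles are replicates 1, 2 and 3. The members' median in replicate 3 reached 0.74 in the Pcl1-3 + Epop knockout and 0.49 in the Pcl1-3 + Jarid2 + Aebp2 knockout. The medians of all IDs lay near 0. The scaling of these values between libraries largely sets that, so it is no reference for the members' shift.

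The ratio of the Pcl1-3 + Jarid2 + Aebp2 knockout to wild type depended on the replicate. Within replicates 1, 2 and 3 the median ratio over members was 0.674, 0.772 and 1.39. In replicate 3 alone 28 members exceeded 1.2 times wild type, against 4 in replicate 1 and 4 in replicate 2. The ratio of the Pcl1-3 + Jarid2 knockout to wild type was 2.27, 2.14 and 3.12 in the 3 replicates. Between these 2 knockouts, all 41 members were higher without than with the loss of Aebp2 in replicates 1, 2 and 3. The median ratios were 3.69, 2.64 and 2.43. The rule fixed that direction for the means of every member, and these are the same libraries read 1 at a time. The counts are therefore a description, and the share of all IDs was not counted.

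IDs were also chosen by the same rule on 2 replicates and read in the one left out. The rule itself was set with earlier results of these data known, and the replicates may be technical. The counts are therefore a description and not an independent test, and the same counts over all IDs were not made. The choice on replicates 2 and 3 gave 38 IDs, on replicates 1 and 3 gave 47, and on replicates 1 and 2 gave 59. In the replicate left out, the Pcl1-3 + Jarid2 knockout exceeded wild type in 37 of 38, 45 of 47 and 57 of 59 IDs. It was at least 2 times wild type in 24, 25 and 53 of them. The Pcl1-3 + Jarid2 + Aebp2 knockout stayed within 1.2 times wild type in 33 of 38, 36 of 47 and 12 of 59. Both thresholds were met again in 19, 15 and 7 IDs. With replicate 1 or 2 left out the limit of 1.2 times was met again more often than the rise to 2 times; with replicate 3 left out the rise recurred in most IDs and the limit was met in few. The number of members moved with single libraries, to 65 without replicate 1 of the Pcl1-3 + Jarid2 knockout, 27 without its replicate 3 and 87 without replicate 3 of the Pcl1-3 + Jarid2 + Aebp2 knockout.

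Across the genotypes that had no part in the choice, the median member was near wild type where 1 form of PRC2 was impaired and over 2 times wild type where the core subunit or all 6 non-core subunits were lost. The median ratio to wild type was 0.984 in the Pcl1-3 knockout, 1.26 in the Pcl1-3 + Epop knockout and 1.196 in the Jarid2 + Aebp2 knockout. It was 2.33 in the full non-core knockout and 2.71 in the Suz12 knockout. Because the wild-type libraries also chose the members, these ratios carry no test.

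The members can be set beside the other 562 IDs of the 603 that passed the first 2 thresholds, those raised in the Pcl1-3 + Jarid2 knockout whatever they did without Aebp2. The median ratio of the others was 1.78 in the Pcl1-3 knockout, 1.86 in the Pcl1-3 + Epop knockout and 1.56 in the Jarid2 + Aebp2 knockout, each above that of the members. It was 2.78 in the full non-core knockout and 2.43 in the Suz12 knockout. The Pcl1-3 + Jarid2 + Aebp2 knockout, which separated the sets by rule, had a median of 2.28 for the others and 0.960 for the members. Of the others, 199 lay between 1.2 and 2 times wild type there. Their medians were 1.59, 1.71 and 1.52 in the Pcl1-3, Pcl1-3 + Epop and Jarid2 + Aebp2 knockouts. The wild-type mean that split the sets is also the denominator of every ratio here. The differences between the sets are therefore not independent of the choice and carry no test.

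**Figure D4:**
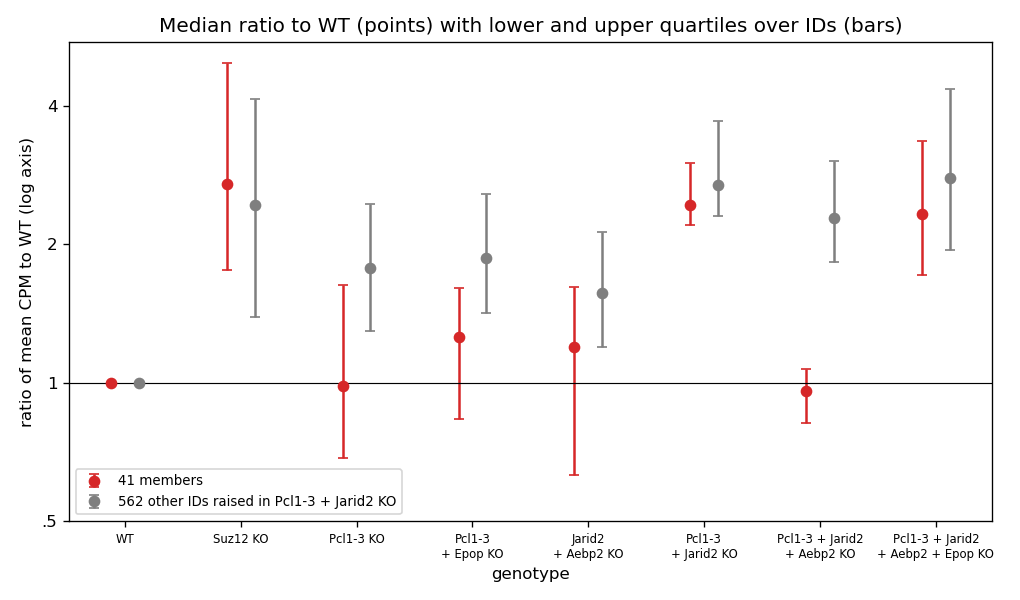
Ratio of each genotype's mean CPM to the wild-type mean, on a log axis, for the 41 members and the other 562 IDs raised in the Pcl1-3 + Jarid2 knockout; points are medians and bars run from the lower to the upper quartile over IDs. The members' medians were 0.984, 1.26 and 1.196 where the others had 1.78, 1.86 and 1.56, and both sets were above 2.3 in the Suz12 and full non-core knockouts. The wild-type mean that split the sets is also the denominator of every ratio.

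By rule all 41 members were at least 2 times wild type in the Pcl1-3 + Jarid2 knockout, where 7.76% of the IDs tested were, and 0 in the Pcl1-3 + Jarid2 + Aebp2 knockout, where 5.82% were. At least 2 times wild type were 28 members (68.3%) in the Suz12 knockout, against 17.0% of the IDs tested, and 25 (61.0%) in the full non-core knockout, against 10.4%. Of the other 562 IDs raised in the Pcl1-3 + Jarid2 knockout, 58.5% were in the Suz12 knockout and 72.2% in the full non-core knockout. Among the 199 of these between 1.2 and 2 times wild type with Aebp2 also lost, the shares were 58.8% and 58.3%. Among the 363 at 2 times or more they were 58.4% and 79.9%. The counts of members were 7 in the Pcl1-3 knockout (5.04% of IDs tested), 8 in the Pcl1-3 + Epop knockout (5.79%), and 4 in the Jarid2 + Aebp2 knockout (4.59%). Every library of the full non-core knockout lay above every wild-type library for 34 members (22.2% of IDs tested) and below for 1 (25.0%), and the Suz12 libraries lay above for 32 (35.8%) and below for 1 (19.6%). The Pcl1-3 libraries lay above wild type for 9 members (18.2%) and below for 7 (14.7%). The Pcl1-3 + Epop libraries lay above for 5 (14.1%) and below for 6 (11.5%), and the Jarid2 + Aebp2 libraries above for 7 (17.0%) and below for 7 (13.3%).

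Most members were higher in the full non-core knockout, which also lacks Epop, than in the Pcl1-3 + Jarid2 + Aebp2 knockout. The rule had kept the level low in the latter, so this is a description and the part of Epop was not tested. The full non-core libraries all lay above the Pcl1-3 + Jarid2 + Aebp2 libraries for 27 members, against 12.1% of IDs tested, and below them for 1, against 14.4%; the low value in the second of these genotypes was part of the choice. Within replicates 1, 2 and 3 the median ratio of the full non-core knockout to that genotype was 3.77, 2.61 and 1.88, and 40, 36 and 29 members were higher. The share of all IDs that were higher within a replicate was not counted. For 15 members the full non-core mean was above that of the Pcl1-3 + Jarid2 knockout.

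The members fell into 4 patterns by which of the core and the full non-core knockout reached 2 times wild type. For 20 members both did; these were members 2, 3, 5, 7, 9, 10, 11, 12, 14, 20, 21, 22, 25, 26, 27, 30, 32, 33, 34 and 36. For 8 only the Suz12 knockout did, namely members 1, 13, 16, 18, 19, 28, 31 and 40. For 5 only the full non-core knockout did, namely members 23, 24, 29, 35 and 39. For the last 8, members 4, 6, 8, 15, 17, 37, 38 and 41, neither did. The Suz12 knockout had the highest mean of the 8 genotypes for 22 members, the Pcl1-3 + Jarid2 knockout for 12, the full non-core knockout for 6 and the Pcl1-3 + Epop knockout for 1. The lowest mean fell in the Pcl1-3 knockout for 11 members, in the Pcl1-3 + Jarid2 + Aebp2 knockout for 11, in the wild type for 8 and in the Jarid2 + Aebp2 knockout for 7. The rule put the Pcl1-3 + Jarid2 mean above those of the wild type and the Pcl1-3 + Jarid2 + Aebp2 knockout. The counts of highest and lowest means follow in part from that. Neither they nor the 4 patterns were counted over all IDs, so no share stands beside them.

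Among the 8 members that reached 2 times wild type in neither, member 15 was under wild type in the full non-core knockout. Its wild-type libraries had 5.78, 5.42 and 2.85 CPM and its full non-core libraries 1.66, 1.17 and 0.394 CPM, a ratio of means of 0.229. The Suz12 mean was 5.60 ± 0.573 CPM (SD, n = 3), which overlapped with wild type. Member 24 was the member highest in the Pcl1-3 + Epop knockout, on the strength of 1 library: the values were 0.677, 1.27 and 17.4 CPM.

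Tests were made on 5 contrasts between genotypes that the choice of members had not used. They come from edgeR's quasi-likelihood fit on all 24 libraries, and p-values are Benjamini-Hochberg adjusted over the 14650 IDs tested, all 41 members included. All 41 also passed the filter on low counts when only these 5 genotypes were used. Contrasts that share a genotype share its libraries: the Pcl1-3, Pcl1-3 + Epop and Jarid2 + Aebp2 knockouts each enter 2 of them, and the full non-core knockout 3. Their values for a member are given side by side and not as repeated evidence.

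Adding the loss of Epop to the loss of Pcl1-3 changed no member past the threshold. edgeR called 0 members higher, against 0.00683% of all IDs, and 0 lower, against 0%. At an unadjusted p under 0.05 there were also 0 members in each direction, against 0.901% and 0.532% of all IDs, and DESeq2 called 0 in each direction. The fitted log2 fold change was above 0 for 31 members and below 0 for 10, with a median of 0.18 against 0.01 over all IDs. All Pcl1-3 + Epop libraries lay under all Pcl1-3 libraries for members 38 and 41 (1.91% of IDs tested) and above for 0 (2.48%).

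Setting the Jarid2 + Aebp2 knockout against the Pcl1-3 knockout compared the 2 forms of the complex. It gave 2 members higher, against 2.16% of all IDs, and 5 lower, against 1.97%. Member 20 was higher, with 9.58, 6.13 and 15.6 CPM without Jarid2 and Aebp2 and 0.619, 0.641 and 2.18 CPM without Pcl1-3. Its log2 fold change was 3.01 with an SE of 0.58 and an edgeR adjusted p of 0.00353. Member 2, whose values are given above, was higher by 1.83 (SE 0.23, edgeR adjusted p = 2.72e-05). The libraries of the 2 genotypes did not overlap for 5 members that were higher (10.7% of all IDs), these included, and for 7 that were lower (9.27%). The median log2 fold change was 0.19 over members and 0.00 over all IDs.

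The members lower without Jarid2 and Aebp2 than without Pcl1-3 were 1, 9, 16, 17 and 25. Member 1 had a log2 fold change of -2.00 (SE 0.32, edgeR adjusted p = 0.000652). Member 17 had 2.27, 1.58 and 1.92 CPM without Jarid2 and Aebp2 and 6.55, 8.19 and 6.12 CPM without Pcl1-3, so that it lay under its wild-type libraries of 4.83, 4.34 and 3.49 CPM in the first and above them in the second. Its log2 fold change was -1.86 (SE 0.27, edgeR adjusted p = 0.000160). Members 1 and 2 thus moved in opposite directions in this contrast. With the replicate number as a block 5 members were higher, and 4.85% of all IDs. The number lower came to between 2 and 4 when any 1 library of the 2 genotypes was left out, with 0.854% to 1.56% of all IDs called lower, and was lowest without replicate 2 of the Jarid2 + Aebp2 knockout; it was 3 without each single library of the Pcl1-3 knockout and 3 without replicate 1 of the Jarid2 + Aebp2 knockout.

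With Jarid2 and Aebp2 lost on top of Pcl1-3 and Epop, 19 members (46.3%) rose, against 13.0% of all IDs, and 0 fell, against 13.7%. Of the 19, 18 were at least 2-fold higher. The full non-core libraries lay above every Pcl1-3 + Epop library for 21 members (14.6% of all IDs) and below for 0 (18.1%). The median log2 fold change over members was 0.74 and over all IDs -0.02, and 30 members had a value above 0. At an unadjusted p under 0.05, 21 members were higher and 2 lower, against 19% and 19.9% of all IDs. A fit of only the 2 genotypes compared called 10 members higher (5.15% of all IDs). DESeq2 called 1 member lower (12.9% of all IDs), and so did the fit with the replicate block (19.1%). The count lower was 2 without replicate 1 of the Pcl1-3 + Epop knockout (12.6%) and 1 without replicate 1 of the full non-core knockout (14% of all IDs).

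The members with the largest rise in that contrast were 23 and 14. Member 23 had 0.978, 1.35 and 1.12 CPM in the Pcl1-3 + Epop libraries and 20.6, 30.3 and 24.5 CPM in the full non-core libraries, a log2 fold change of 4.49 (SE 0.65, edgeR adjusted p = 3.66e-05). Member 14 had 0.828, 2.14 and 2.23 CPM and 21.0, 25.2 and 26.3 CPM, a log2 fold change of 3.85 (SE 0.46, edgeR adjusted p = 3.57e-06). Both stood above their level in the Pcl1-3 + Jarid2 knockout, which was 2.80, 7.88 and 10.3 CPM for member 23 and 9.12, 11.3 and 16.8 CPM for member 14. The other members called higher were 2, 3, 5, 7, 9, 10, 11, 12, 19, 20, 22, 28, 32, 33, 34, 35 and 39.

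Losing Pcl1-3 and Epop on top of Jarid2 and Aebp2 gave 18 members (43.9%) higher, against 17.9% of all IDs, and 0 lower, against 17.6%. Of the 18, 16 were at least 2-fold higher. The libraries did not overlap for 21 members that were higher (19.5% of all IDs) and 2 that were lower (24.3%), members 6 and 40. The median log2 fold change was 0.89 over members and 0.00 over all IDs, and 34 members had a value above 0. At an unadjusted p under 0.05, 24 members were higher and 1 lower, against 22.4% of all IDs in each direction. DESeq2 called 0 lower (14.4% of all IDs), the fit with the replicate block 2 (23.2%), and the fit without replicate 2 of the Jarid2 + Aebp2 knockout 1 (16.6%).

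Members 23 and 34 had the largest rise there. Member 23 went from 0.951, 4.13 and 3.51 CPM to the full non-core values already given, a log2 fold change of 3.16 (SE 0.58, edgeR adjusted p = 0.000273). Member 34 went from 0.732, 0.971 and 1.44 CPM to 8.64, 7.94 and 10.2 CPM, a log2 fold change of 3.14 (SE 0.28, edgeR adjusted p = 3.75e-08). Members 1 and 17, lower without Jarid2 and Aebp2 than without Pcl1-3, were both among the 18, with 2, 3, 7, 9, 11, 13, 14, 19, 22, 25, 29, 32, 35 and 39.

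**Figure D5:**
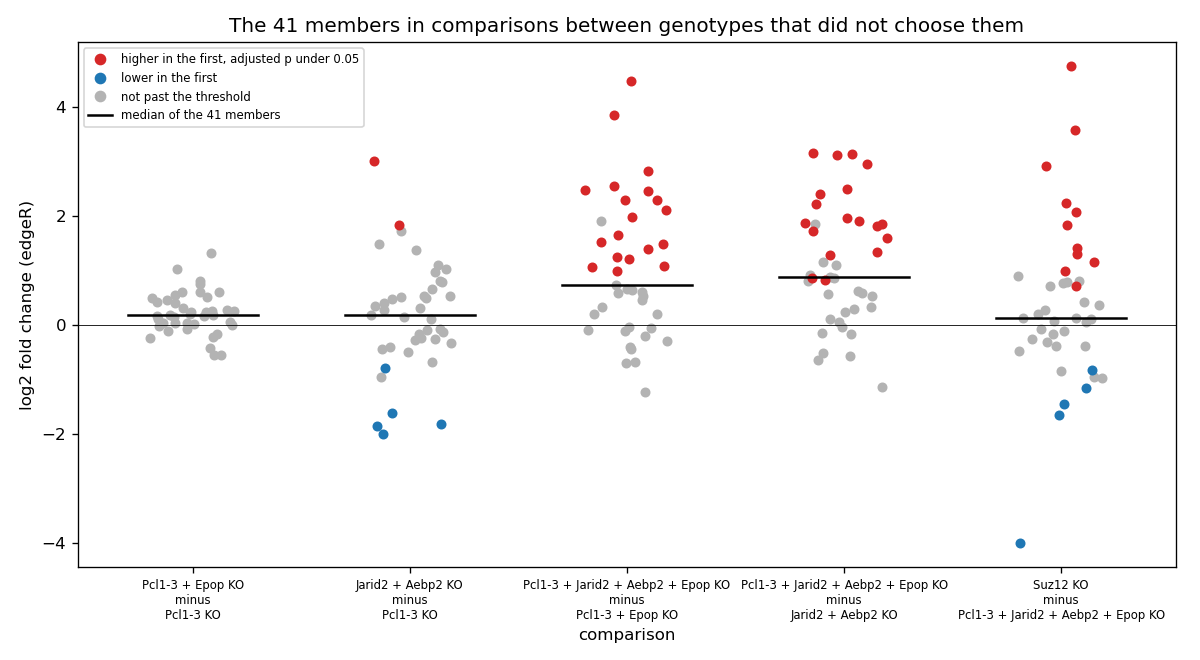
Fitted log2 fold changes (edgeR) of the 41 members in the 5 contrasts that the choice of members did not use; points are members, red where called higher, blue where called lower and grey otherwise, and bars are medians. Both contrasts of the full non-core knockout with a less complete one have 18 or 19 members called higher and 0 lower, and the contrast of Pcl1-3 + Epop with Pcl1-3 has 0 called.

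Some members differed between the Suz12 knockout and the full non-core knockout in each direction. The share of members called higher was near that of all IDs, and the share called lower was smaller than that of all IDs. Losing the core subunit gave 11 members higher than losing the non-core subunits, against 22.2% of all IDs, and 5 lower, against 20.8%. At least 2-fold were 9 of the 11 and 4 of the 5. The libraries did not overlap for 18 members that were higher (33.9% of all IDs) and 8 that were lower (16.8%). The median log2 fold change was 0.13 over members and -0.02 over all IDs. As shares of the members, 26.8% were called higher and 12.2% lower.

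Member 40 differed most. Its Suz12 libraries had 16.6, 25.7 and 29.3 CPM, and its full non-core libraries 0.698, 0.623 and 1.02 CPM, within the wild-type range of 0.641 to 1.77 CPM except for 1 library. The log2 fold change was 4.76 (SE 0.51, edgeR adjusted p = 3.12e-07). Member 16 had 43.0, 45.1 and 48.4 CPM in the Suz12 libraries and 5.33, 2.41 and 2.60 CPM in the full non-core libraries, a log2 fold change of 3.58 (SE 0.50, edgeR adjusted p = 9.18e-06). The other members called higher in the Suz12 knockout were 5, 15, 18, 19, 21, 25, 26, 31 and 34.

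The members lower in the Suz12 knockout than in the full non-core knockout were 14, 17, 23, 39 and 41. Member 23 had 1.42, 2.28 and 1.46 CPM in the Suz12 libraries, overlapping with the wild type at 1.80, 2.56 and 2.64 CPM, while the full non-core libraries were all above 20 CPM; the log2 fold change was -4.01 (SE 0.61, edgeR adjusted p = 2.36e-05). Member 17 had 1.85, 2.67 and 2.86 CPM in the Suz12 libraries and 8.12, 6.46 and 6.54 CPM in the full non-core libraries, a log2 fold change of -1.66 (SE 0.26, edgeR adjusted p = 2.93e-05). Its Suz12 libraries were also all under the wild-type libraries. Member 17 was thus high with Pcl1-3 and Jarid2 lost, at 11.1, 8.05 and 8.79 CPM, and low with the core subunit lost. The number of members lower was 3 without replicate 1 of the Suz12 knockout, with 16.5% of all IDs called lower.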

How the data were processed

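The authors deposited 1 table of whole-number counts per Ensembl gene ID for each RNA-seq library; STAR, HTSeq and mm10 are named in the submitters' processing notes, without versions or settings. No source used here states whether counting used strand, or how reads shared by similar genes were treated. The 3 deposited peak lists were not used, since the IDs carry no position here. CPM was computed from each library's sum of gene counts, except that deviations from a genotype's mean used edgeR's log2 CPM with TMM factors. Tests used edgeR 4.0.16 in R 4.3.3: filterByExpr kept 14650 IDs, TMM factors ran from 0.946 to 1.09, and a robust quasi-likelihood fit gave each genotype 1 mean, with Benjamini-Hochberg adjusted p under 0.05 as the threshold. DESeq2 1.42.0, other filters and scalings, a replicate block and leaving out libraries were alternatives.

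The members and the rules were chosen with earlier results of these data known. Members named with full statistics are the 2 with the highest mean in the Pcl1-3 + Jarid2 knockout, the one with the largest ratio to wild type and, for each contrast and direction, up to 2 called members with the largest fold change whose libraries do not overlap; members 15 and 24 were named for other reasons after their values were seen. At most 4 IDs were printed because no symbols were paired with them.

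The labels give the same replicate numbers in each genotype without saying that a number marks a batch. Same-numbered libraries of the genotypes compared deviated together: the correlation of their deviations across genes was between 0.142 and 0.710 in every pair of the 5 contrasts. Replicate 1 of the Pcl1-3 + Epop knockout went further with replicate 2 of the Pcl1-3 knockout (0.390) than with its replicate 1 (0.200). The numbers were therefore taken as a possible pairing of the samples, which the p-values reported do not take into account. The fit reported has no block, and the count with the block stands beside it where it differs by over 1.5 times; all other blocked counts are given with the alternatives.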

Additional observations from a re-analysis of the deposited data

How the results depend on the processing

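Every log2 fold change given with its p-value kept its direction and its side of the threshold in all 144 alternatives run on them. Counts moved more: 110 of the counts under alternatives lay within 1.5 times the value reported and 27 did not. The number of members, 41, was 10 with a ratio of at least 3 in the Pcl1-3 + Jarid2 knockout, 25 with a limit of 1 times wild type in the Pcl1-3 + Jarid2 + Aebp2 knockout, and 27 to 87 with 1 library left out. Without the filter on low counts the contrast of Pcl1-3 + Epop with Pcl1-3 had 1 member higher (0.051% of all IDs); Jarid2 + Aebp2 against Pcl1-3 had 7 higher (1.51%); the full non-core knockout had 2 lower against Pcl1-3 + Epop (6.72%) and 2 lower against Jarid2 + Aebp2 (8.39%); and Suz12 had 8 lower than the full non-core knockout (9.29%). With the replicate block the same comparisons gave 5 higher (4.85% of all IDs) and 6 lower (4.41%) for Jarid2 + Aebp2 against Pcl1-3, 23 higher (18.6%) and 1 lower (19.1%) for the full non-core knockout against Pcl1-3 + Epop, 24 higher (23%) and 2 lower (23.2%) against Jarid2 + Aebp2, and 15 higher (26.5%) and 7 lower (26.3%) for Suz12. With 0 called in either direction for Pcl1-3 + Epop against Pcl1-3, the pairing moved no count by over 1.5 times other than those 5, 1 and 2. Fitting only the 2 genotypes compared gave 2 lower for Jarid2 + Aebp2 against Pcl1-3 (0.362% of all IDs, 39 members tested), 10 higher for the full non-core knockout against Pcl1-3 + Epop (5.15%) and 1 lower against Jarid2 + Aebp2 (13.4%); this fit estimates the spread from fewer samples. DESeq2 gave 1 lower for the full non-core knockout against Pcl1-3 + Epop (12.9%), and the fit without TMM factors 1 lower against Jarid2 + Aebp2 (19.4%). Leaving out 1 library at a time gave 2 to 4 lower for Jarid2 + Aebp2 against Pcl1-3 (0.854% to 1.56% of all IDs), 0 to 2 lower for the full non-core knockout against Pcl1-3 + Epop (9.53% to 14%), 0 to 1 lower against Jarid2 + Aebp2 (13.1% to 17.5%), and 3 to 5 lower for Suz12 (16.5% to 19%). On replicates 1 and 2 alone, chosen after seeing the data, the full non-core knockout had 25 members higher against Pcl1-3 + Epop (10.7%) and 24 against Jarid2 + Aebp2 (14.4%). Apart from the settings whose construction is named, the cause was not tested. The alternatives planned for the peaks were not run. With 29 members under 5 CPM in the wild type, depth limits the precision of most ratios.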

Other observations

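The return to the wild-type level was also counted in the other genotypes, with no test because the wild-type libraries are shared. Of the 603 IDs raised in the Pcl1-3 + Jarid2 knockout, 41 (6.80%) were within 1.2 times wild type in the Pcl1-3 + Jarid2 + Aebp2 knockout and 39 (6.47%) in the full non-core knockout, 5 of them members. The same count was 163 (27.03%) in the Jarid2 + Aebp2 knockout, 138 (22.9%) in the Pcl1-3 knockout, 107 (17.7%) in the Pcl1-3 + Epop knockout and 104 (17.2%) in the Suz12 knockout. Among these IDs were 21, 24, 18 and 5 members, in that order. The mirror image of the rule, a wild-type mean of at least 2 CPM and at most 0.5 times wild type in the Pcl1-3 + Jarid2 knockout, held for 466 IDs, of which 13 (2.79%) were back at or above the wild-type mean divided by 1.2 in the Pcl1-3 + Jarid2 + Aebp2 knockout.

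The summed CPM of the members in the Pcl1-3 + Epop libraries was 459, 657 and 1129, and without member 1 it was 233, 343 and 558. The Suz12 libraries summed to 1392, 1640 and 1847 CPM, and the full non-core libraries to 1160, 1248 and 1423 CPM, against 488, 545 and 479 CPM in the wild type.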
